A study of Homo sapiens with 16 samples.

Results

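KRT16, KRT17, KRT8, KRT18, KRT10, KRT14, KRT6A and KRT19 are 8 keratin genes among the 60623 genes counted by RNA-Seq in MUTZ-3 cells, an acute myeloid leukemia (AML) line with inv(3) that overexpresses EVI1. They were chosen by gene name, with their levels and responses in these libraries already known, and each name matched 1 gene in all 16 libraries. KRT16, KRT17, KRT18, KRT10, KRT14 and KRT19 are type I keratins (6 of 28 in the annotation), whereas KRT8 and KRT6A are type II keratins (2 of 26). In the PARPi experiment, 9 libraries were made from cells kept for 12, 24 or 48 h with the vehicle DMSO, with olaparib at 10 µM or with talazoparib at 1 µM, and another from cells that got neither (0 h). Olaparib and talazoparib inhibit the DNA repair and chromatin enzyme PARP1. In the knockdown experiment, cells carried a pLKO.1 lentiviral vector with a non-targeting control (NTC), shEVI1-2531 or shEVI1-2532, were selected with puromycin and were taken at day 3 or day 6, which gave 6 libraries. All groups are the same cell line, cultured with GM-CSF and with medium conditioned by 5637 cells, a bladder carcinoma line. The deposited files of the libraries labelled shEVI1-2531 carry another shRNA number in their names, so which shRNA these hold rests on the labels alone. Each condition was sequenced once, so no value has a replicate, and nothing in the labels tells whether time points came from separate cultures.

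Keratins are the intermediate filament proteins of epithelial cells, and a filament needs a type I and a type II keratin in pairs. KRT8 with KRT18 forms the filaments of simple epithelia, KRT14 with KRT5 those of basal keratinocytes, and KRT10 with KRT1 those of differentiated epidermis. KRT16 and KRT17 pair with the KRT6 proteins and are known from hair follicles, nails and wounded or inflamed skin, while KRT19 is a small type I keratin of simple and glandular epithelia. Blood cells mostly use vimentin as their cytoplasmic intermediate filament.

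KRT16 (ENSG00000186832, GRCh38 chr17:41609778-41615899) and KRT17 (ENSG00000128422, chr17:41619442-41624842) are neighbours on the minus strand of chromosome 17, with 3542 bases between them. Both have copies elsewhere on the chromosome that are annotated as pseudogenes. Over the aligned transcript, KRT16 was identical to KRT16P1, KRT16P2 and KRT16P3 at 94.6%, 94.8% and 94.7% of bases, and to the functional KRT14 at 90.4%. KRT17 was identical at 95.2% to 95.7% of bases to KRT17P1, KRT17P2, KRT17P3 and KRT17P6. To show what a read of 100 bases, the read length in the labels, meets in these copies, a coding stretch of exon 6 was taken from KRT16 (chr17:41610452-41610551, minus strand) and set against the 3 copies that passed the filter on low counts (at least 10 counts in at least 2 of 6 knockdown libraries), with a capital at each base that differs from KRT16 in the copy, and at each such position in KRT16 itself.
KRT16: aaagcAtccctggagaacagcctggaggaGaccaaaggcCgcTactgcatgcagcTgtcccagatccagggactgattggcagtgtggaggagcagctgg
KRT16P1: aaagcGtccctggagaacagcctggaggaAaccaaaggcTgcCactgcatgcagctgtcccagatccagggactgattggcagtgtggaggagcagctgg
KRT16P2: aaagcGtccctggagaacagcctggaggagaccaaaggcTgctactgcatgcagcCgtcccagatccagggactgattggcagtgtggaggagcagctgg
KRT16P3: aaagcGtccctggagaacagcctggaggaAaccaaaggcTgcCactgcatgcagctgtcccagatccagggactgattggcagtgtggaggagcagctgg
The copies differ from KRT16 at 4, 3 and 4 of these 100 bases, and KRT16P1 and KRT16P3 are the same here. The like stretch of exon 6 of KRT17 (chr17:41620770-41620869, minus strand) holds 8 positions at which any of the 4 copies that passed this filter differs. It is shown with KRT17P2, the copy with the most counts, and KRT17P3.
KRT17: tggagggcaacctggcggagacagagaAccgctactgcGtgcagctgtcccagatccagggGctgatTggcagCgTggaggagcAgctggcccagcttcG
KRT17P2: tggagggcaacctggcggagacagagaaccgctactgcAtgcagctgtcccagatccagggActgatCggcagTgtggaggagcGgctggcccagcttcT
KRT17P3: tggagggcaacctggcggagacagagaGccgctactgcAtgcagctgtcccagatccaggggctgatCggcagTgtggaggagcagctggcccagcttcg
KRT17P2 differs at 6 and KRT17P3 at 4 of the 100 bases. Both windows were picked as typical of the coding sequence by their number of differences.

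Exact repeats of a whole read were rarer than these identities. Of the 2369 different 100-base words in the KRT16 transcripts, 111 (4.69%) also occur in another gene, namely KRT14, KRT16P3 or KRT16P2. For KRT17, 5 of 3405 words (0.147%) recur, all in KRT17P3. KRT10 and KRT19 share no word with another gene. KRT8 shares 5.51% of its words and KRT18 8.39%, and 294 words are common to both, since the 5′ ends of the genes overlap over 1084 bases on opposite strands of chromosome 12. KRT14 shares 4.08%, and KRT6A, with its near copies KRT6B and KRT6C, 13.6%. The kit marks strand, but the strand setting of the counting is not given in the sources used here, so reads from the overlap of KRT8 and KRT18 cannot be told apart. Likewise KRT10 overlaps TMEM99 on the opposite strand over 3509 bases, introns included.

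KRT16 was, of the members with counts in every library, the one that differed most between libraries. Its level in CPM (counts relative to the library total, scaled with TMM factors within each experiment) was 24.9 CPM in untreated cells and 44.5, 62.4 and 83.2 CPM with DMSO for 12, 24 and 48 h. Olaparib libraries held 64.7, 169 and 659 CPM and talazoparib libraries 57.4, 221 and 743 CPM at the same times. Every inhibitor library lay above the DMSO library of its hour, though the 12 h inhibitor libraries lay within the range of the 3 DMSO libraries, and the untreated library was the lowest of all. NTC libraries held 235 CPM at day 3 and 153 CPM at day 6, shEVI1-2531 libraries 372 and 480 CPM, and shEVI1-2532 libraries 1746 and 1275 CPM. The 3 arms did not overlap, in the order NTC, shEVI1-2531, shEVI1-2532. In counts, the lowest and highest of the 16 libraries held 1720 and 153536.

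KRT17 followed a like course from a higher start. Untreated cells had 86.4 CPM, and DMSO cells 110, 130 and 143 CPM at 12, 24 and 48 h. With olaparib the level was 167, 370 and 903 CPM, and with talazoparib 161, 477 and 1014 CPM. All 6 inhibitor libraries were above all 3 DMSO libraries. What share of all genes separates the groups in this way was not computed. Such separation, here and for the other keratins, therefore only describes these libraries. The knockdown libraries held 303 and 226 CPM with NTC, 647 and 894 CPM with shEVI1-2531, and 1126 and 924 CPM with shEVI1-2532, at day 3 and day 6. Both shRNAs lay above NTC, but unlike for KRT16 they came close to one another at day 6. In bulk RNA, a change in the number of cells that make a transcript and a change in its amount per cell cannot be told apart, here and for every gene below.

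**Figure D1:**
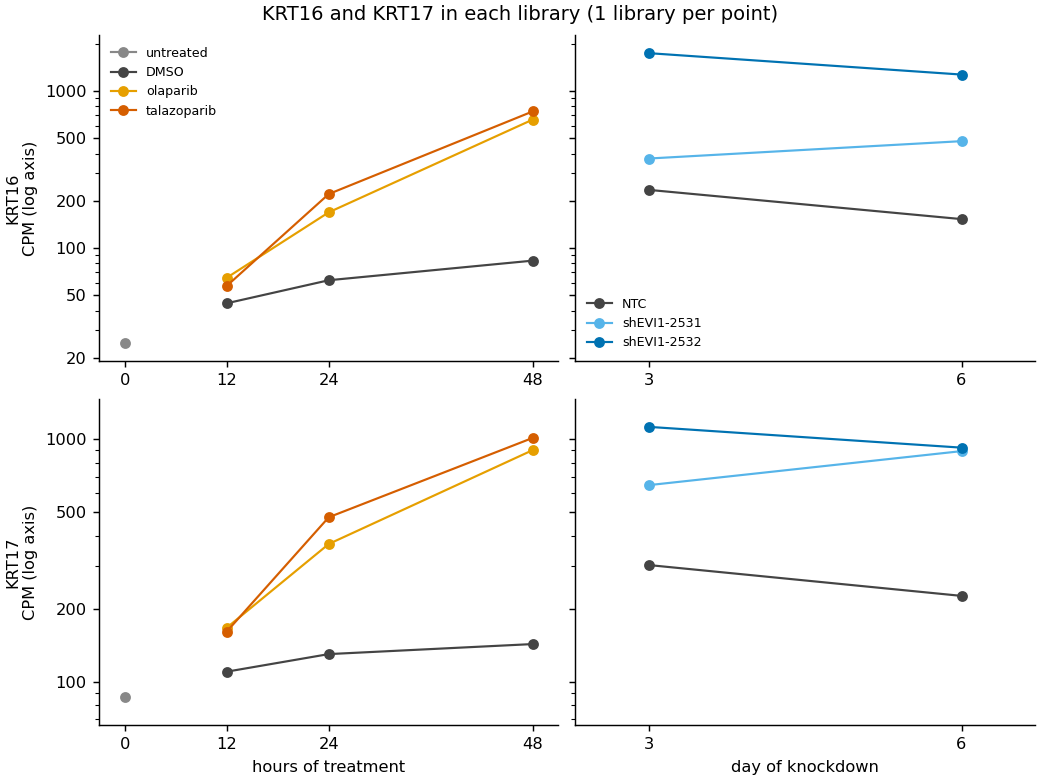
TMM-scaled CPM (log axis) of KRT16 (top) and KRT17 (bottom) against hours of treatment (left) or day of knockdown (right), 1 library per point, with lines joining the libraries of an arm. KRT16 reached 659 CPM with olaparib and 743 CPM with talazoparib at 48 h against 83.2 CPM with DMSO, and 1746 CPM with shEVI1-2532 at day 3 against 235 CPM with NTC.

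Set against DMSO of the same hour, KRT16 was 1.45-fold higher with olaparib at 12 h, 2.71-fold at 24 h and 7.92-fold at 48 h. With talazoparib the ratios were 1.29-fold, 3.55-fold and 8.92-fold. For KRT17 they were 1.51-fold, 2.85-fold and 6.3-fold with olaparib, and 1.46-fold, 3.67-fold and 7.08-fold with talazoparib. Both genes thus had a larger ratio at each later time. The 95% intervals of these ratios were narrow, from 2.94 to 3.03 on the log2 scale for KRT16 with olaparib at 48 h, but they cover counting error only. Without inhibitor, KRT16 with DMSO was 1.79-fold, 2.5-fold and 3.34-fold above the untreated library at 12, 24 and 48 h, and KRT17 1.28-fold, 1.5-fold and 1.66-fold. KRT16 thus also differed between controls that no inhibitor had reached. From NTC day 3 to NTC day 6, by contrast, KRT16 was 0.65-fold and KRT17 0.745-fold.

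Against NTC of the same day, shEVI1-2532 gave KRT16 ratios of 7.44-fold at day 3 and 8.35-fold at day 6, and shEVI1-2531 ratios of 1.58-fold and 3.15-fold. KRT17 ratios were 3.71-fold and 4.09-fold with shEVI1-2532, and 2.13-fold and 3.96-fold with shEVI1-2531. Scaling to the library total alone left every ratio of KRT16 and KRT17 above 1, and summing each gene with all of its pseudogenes moved none of them by more than its counting interval.

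KRT8 and KRT18, the pair of simple epithelia, were far lower. KRT8 held 5.29 CPM in untreated cells, 5.63, 5.18 and 6.08 CPM with DMSO, 5.86, 6.44 and 12.4 CPM with olaparib and 6.54, 6.42 and 14.1 CPM with talazoparib at 12, 24 and 48 h. Only the 48 h inhibitor libraries stood clearly apart, at 2.04-fold and 2.33-fold of DMSO. In the knockdown, KRT8 was at 3.79 and 5.36 CPM with NTC, 6.53 and 6.75 CPM with shEVI1-2531, and 13.5 and 15.2 CPM with shEVI1-2532, so the arms were again ordered without overlap. KRT18 in the PARPi experiment lay between 7.75 CPM (DMSO at 24 h) and 11.8 CPM (talazoparib at 48 h). Its olaparib library at 12 h, with 8.52 CPM, was just under DMSO with 8.65 CPM, so treated and control libraries overlapped. With knockdown, KRT18 was at 6.1 and 8.69 CPM with NTC, 10.3 and 11.3 CPM with shEVI1-2531, and 20.6 and 19.3 CPM with shEVI1-2532, the same order as for KRT8. Per kb of exon, KRT18 exceeded KRT8 in all 16 libraries, by 1.7-fold (olaparib at 48 h) to 3.59-fold (shEVI1-2531 at day 6). The ratio fell under 2 in the 48 h inhibitor libraries alone, at 1.7 and 1.79, against 2.75 with DMSO at 48 h. It depends on the long exon set of KRT8, 6881 bases against 3218 for KRT18.

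KRT14, the basal keratinocyte type I keratin, was near the lower end of what these libraries measure. It had 12 counts in the untreated library, 21, 31 and 86 with DMSO, 35, 57 and 97 with olaparib and 29, 45 and 69 with talazoparib. In CPM this was 0.174 untreated, 0.31 to 1.31 with DMSO, 0.535 to 1.79 with olaparib and 0.388 to 1.45 with talazoparib. DMSO at 48 h was 7.53-fold above untreated cells, a pair of single libraries that differ in both time and vehicle, while the ratios of inhibitor to DMSO ran from 1.11-fold to 1.93-fold. With scaling to the library total, the lowest of them, talazoparib at 48 h, turned to -0.13 on the log2 scale from 0.15. NTC held 1.46 and 1.37 CPM, shEVI1-2531 1.64 and 1.52 CPM, and shEVI1-2532 3.84 and 1.97 CPM. The shEVI1-2532 library at day 3 stood apart from the other 5.

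KRT10, which marks differentiating keratinocytes, was the steadiest member. It held 14 CPM in untreated cells and 10.9 to 15.3 CPM in the 9 libraries of the time course, with treated and DMSO libraries mixed. In the knockdown libraries it was at 13.6 and 8.39 CPM with NTC, 15.3 and 10.6 CPM with shEVI1-2531, and 13.3 and 10.4 CPM with shEVI1-2532. The days differed more than the arms did.

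KRT19 and KRT6A were at or near the detection limit. KRT19 had 0 to 2 counts in 9 of the 10 PARPi libraries and 8 in talazoparib at 12 h. In the knockdown it had 0 counts in both NTC libraries, 3 and 1 with shEVI1-2531, and 7 and 7 with shEVI1-2532. KRT6A had 0 counts in all 16 libraries, which allows up to 0.0249 to 0.0536 CPM (3 counts of each library total). KRT5, KRT6B and KRT6C were also at 0 in every library and KRT1 had 2 counts in all libraries together. The usual type II partners of KRT16, KRT17, KRT14 and KRT10 named above therefore all stayed under 3 counts, the limit used here, in every library.

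**Figure D2:**
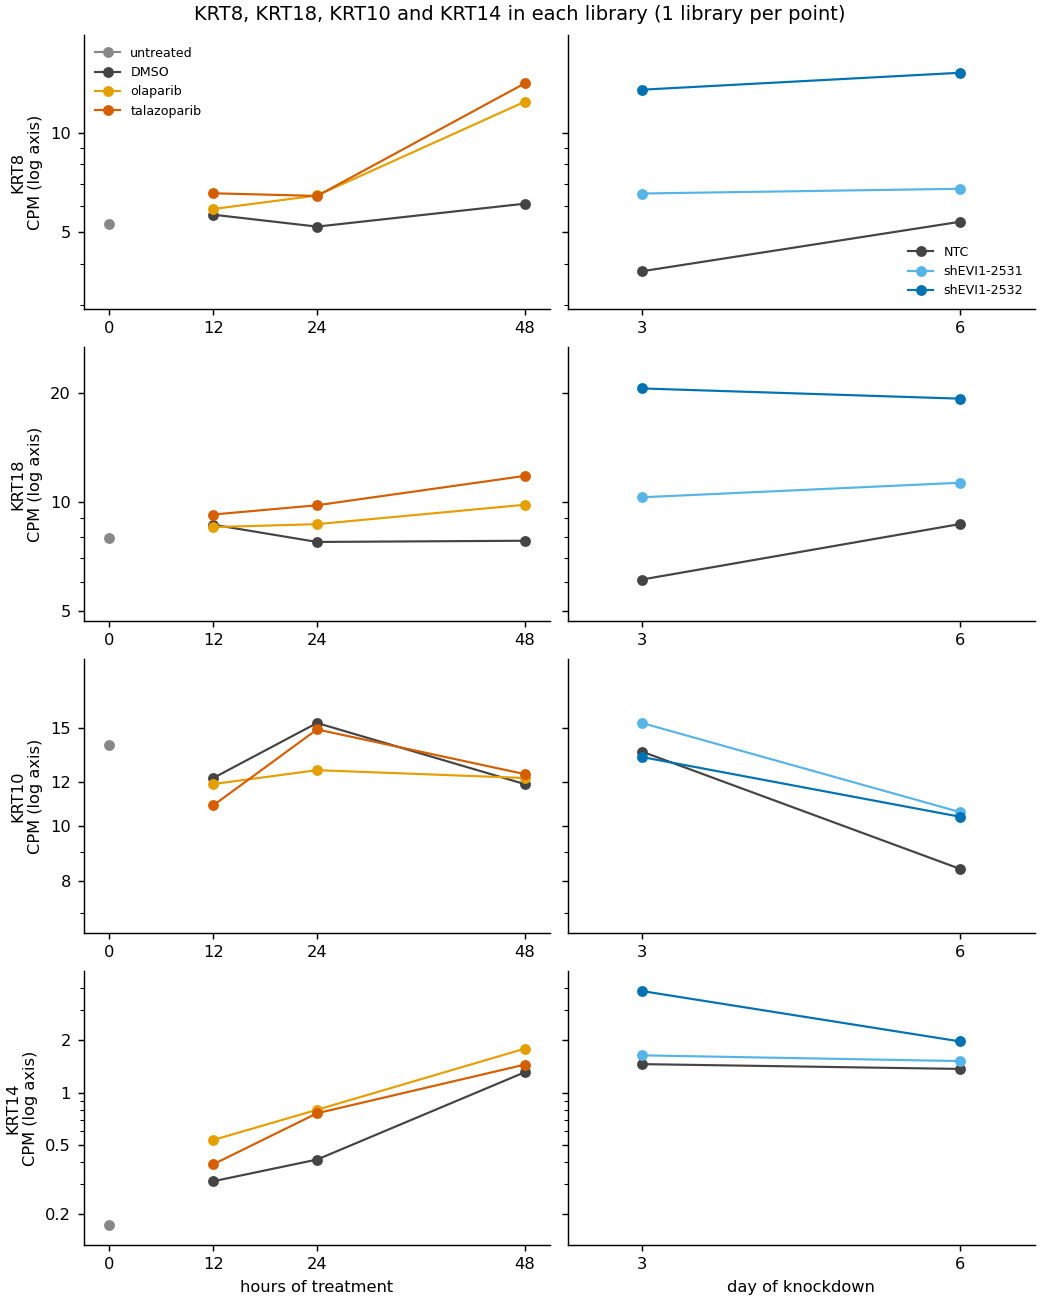
TMM-scaled CPM (log axis, its range set for each gene) of KRT8, KRT18, KRT10 and KRT14 against hours of treatment (left) or day of knockdown (right), 1 library per point, with lines joining the libraries of an arm. KRT8 and KRT18 were highest with shEVI1-2532, at 13.5 to 15.2 CPM and 19.3 to 20.6 CPM, KRT10 had overlapping arms, and KRT14 with DMSO went from 0.31 to 1.31 CPM between 12 and 48 h.

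Levels of different genes were compared per kb of GENCODE 29 exon. In untreated cells the order was KRT17 (27.6 CPM per kb), KRT16 (10.1), KRT10 (6.53), KRT18 (2.46), KRT8 (0.769), KRT14 (0.0762) and KRT19 (0.0062), with KRT6A at 0. KRT17 was above KRT16 in 14 of 16 libraries and below it in both shEVI1-2532 libraries, where KRT16 stood at 706 and 515 CPM per kb and KRT17 at 360 and 295. The same 2 libraries were the only ones with KRT18 above KRT10. KRT14 exceeded KRT8 in NTC at day 3 alone. KRT16 was above KRT10, KRT18 above KRT8 and KRT14 above KRT19 in all 16 libraries. Neighbours in this order whose ranges overlap within an experiment are KRT17 with KRT16, KRT8 with KRT14, and in the knockdown also KRT10 with KRT18 and KRT18 with KRT8. KRT16 ranked 4071st per kb of exon among 58516 genes in untreated cells, 186th with talazoparib at 48 h and 91st with shEVI1-2532 at day 3. KRT17 ranked 1628th, 174th and 167th in these libraries.

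With 1 library per condition, a 2-fold difference from the control of the same time was taken as the mark, on the scale of log2(CPM + 0.05). Of the 6 members that passed the filter on low counts (KRT19 and KRT6A did not), none passed it with olaparib or talazoparib at 12 h, where 2.01% and 2.21% of all genes tested did. KRT16 and KRT17 were past it with both inhibitors at 24 h, beside 4.83% of genes with olaparib and 7.55% with talazoparib. At 48 h KRT16, KRT17 and KRT8 were past it with both, beside 11.0% and 15.9% of genes. With shEVI1-2532, KRT16, KRT17, KRT8, KRT18 and KRT14 were past it at day 3 and all of these but KRT14 at day 6, beside 12.0% of genes on each day. With shEVI1-2531, KRT17 alone was past it at day 3 (5.91% of genes) and KRT16 and KRT17 at day 6 (5.44% of genes). No member was over 2-fold lower in any treated library. Since the members were chosen with these ratios known, these counts describe them and are no test.

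**Figure D3:**
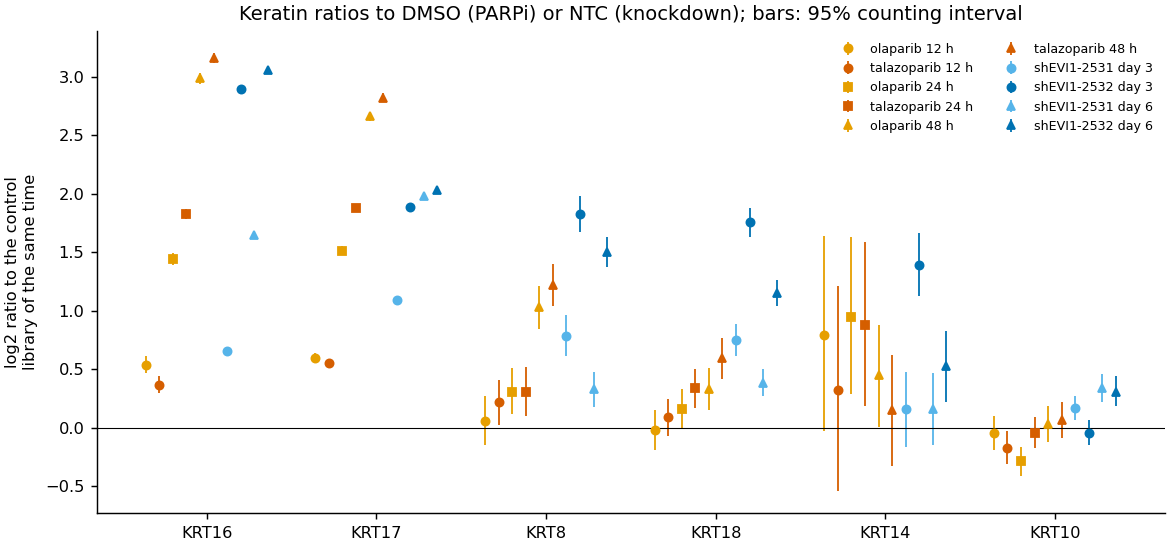
log2 ratio of TMM-scaled counts of each treated library to the control library of the same time (DMSO for PARPi, NTC for knockdown) for 6 keratins, 1 point per library, with bars for the 95% counting interval; where no bar shows, it is smaller than the point. KRT16 and KRT17 ranged up to 3.16 and 2.82, whereas KRT10 stayed between -0.28 and 0.34.

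Across the time course, with the 3 time points as blocks in edgeR's quasi-likelihood test, the mean effect of both inhibitors was 1.60 ± 0.42 (log2 fold change ± SE) for KRT16 and 1.59 ± 0.35 for KRT17. It was 0.57 ± 0.20 for KRT14, 0.51 ± 0.18 for KRT8, 0.25 ± 0.12 for KRT18 and -0.07 ± 0.11 for KRT10. The fit takes each inhibitor's effect as the same at every hour. Its SE and p therefore hold the growth of the KRT16 and KRT17 ratios with time, and no spread between replicates. At an adjusted p under 0.05, KRT17 was the 1 member of 6 called, beside 4.17% of the 17218 genes tested (3.16% called higher). KRT17 lost this call without the 24 h libraries and without the time point in the model, and KRT16, at an adjusted p of 0.0567, was called in 4 of 9 alternative fits. In the knockdown fit, with day as a block, shEVI1-2532 gave 2.97 ± 0.21 for KRT16, 1.96 ± 0.19 for KRT17, 1.66 ± 0.20 for KRT8, 1.45 ± 0.19 for KRT18, 0.98 ± 0.29 for KRT14 and 0.14 ± 0.18 for KRT10. The first 5 were called higher, beside 21.2% of 18606 genes. With shEVI1-2531 the values were 1.18 ± 0.20 for KRT16 and 1.55 ± 0.19 for KRT17, both called higher beside 9.49% of genes. For KRT8 it gave 0.55 ± 0.19, for KRT18 0.56 ± 0.19, for KRT14 0.16 ± 0.28 and for KRT10 0.25 ± 0.18, none of them called. The median over the 6 members was 0.54 for PARPi, 1.55 for shEVI1-2532 and 0.56 for shEVI1-2531, against medians of -0.006, 0.000 and 0.007 over all genes tested. The members were selected on these contrasts, so neither the calls nor the medians support anything beyond the description. The shRNAs share their NTC libraries, and the inhibitors their DMSO libraries.

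Talazoparib traps PARP on DNA more strongly than olaparib, and the inhibitors were given at unequal doses, so their difference is given as values of these treatments. It comes from the same libraries as the ratios above. Talazoparib minus olaparib was 0.16 ± 0.44 for KRT16 (95% interval -0.84 to 1.16), 0.18 ± 0.37 for KRT17 (-0.66 to 1.02), 0.12 ± 0.21 for KRT8, 0.18 ± 0.14 for KRT18, 0.05 ± 0.12 for KRT10 and -0.27 ± 0.23 for KRT14. None of these 6 was called by edgeR, at adjusted p of 0.952 to 0.967, nor had an unadjusted p under 0.05, and DESeq2 also called 0. Over all 17218 genes edgeR called 0 (0% of genes, 354 at an unadjusted p under 0.05). The fit takes each inhibitor's effect as the same at every hour, so growth of the ratios with time widens its error. The lack of calls therefore does not show that the inhibitors act alike. For KRT16 the 2 inhibitors stood at 0.888, 1.31 and 1.13 (talazoparib over olaparib) at 12, 24 and 48 h, so the direction was not the same at each hour. The intervals of KRT16 and KRT17 thus leave room for differences of either sign.

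The difference between the shRNAs was fitted in the same way. As the responses of the members to each shRNA were known when they were chosen, it draws on the values that selected them, and its p-values describe these libraries and are no independent test. KRT16 was higher with shEVI1-2532 than with shEVI1-2531 by 1.79 ± 0.20 on the log2 scale (edgeR, adjusted p = 0.00011), 4.69-fold at day 3 and 2.66-fold at day 6. KRT8 differed by 1.10 ± 0.19 (adjusted p = 0.00157) and KRT18 by 0.89 ± 0.19 (adjusted p = 0.00533), and both were higher with shEVI1-2532 on both days. KRT17 differed by 0.40 ± 0.18 (adjusted p = 0.138), with 1.74-fold at day 3 and 1.03-fold at day 6 (-0.13 on the log2 scale with scaling to the library total), and KRT14 by 0.82 ± 0.29 (adjusted p = 0.0554). KRT10 gave -0.12 ± 0.18 (adjusted p = 0.67). By this fit 3 of 6 members were called higher, beside 12.2% of all genes, and nothing is read from that count. The KRT16 call held in all 12 alternative fits, those of KRT8 in 10 of 11 and of KRT18 in 9 of 11. KRT18 lost it without shEVI1-2532 day 3 (adjusted p = 0.0915), and both lost it without the day in the model (0.0517 for KRT8, 0.0966 for KRT18). KRT17 gained it without shEVI1-2531 day 6 (adjusted p = 0.000745), without shEVI1-2532 day 6 (0.00898) and without a filter on low counts (0.032). KRT14 gained it without shEVI1-2531 day 6 (0.0334), without shEVI1-2532 day 6 (0.0157), without a filter (0.0271) and with DESeq2 (0.0487). The target was read from the gene MECOM, whose counts pool EVI1 with the MDS1 and MDS1-EVI1 transcripts of the locus, so no value stands for EVI1 alone. MECOM was at 40.6 and 37.2 CPM with NTC, 13.2 and 17.5 CPM with shEVI1-2531, and 5.14 and 4.31 CPM with shEVI1-2532. The arm with the least MECOM had the most KRT16, KRT8 and KRT18. KRT17 at day 6, however, was close between the shRNAs, at 894 CPM with shEVI1-2531 and 924 CPM with shEVI1-2532. A relation of keratin levels to the level of MECOM was not tested. In the PARPi libraries MECOM was lowest with talazoparib at 48 h, at 10 CPM against 61.7 CPM with DMSO. Its mean PARPi effect was -0.92 ± 0.34 and was not called (edgeR, adjusted p = 0.0971). Over 8 alternative fits it ran from -1.308 to -0.318, and 3 of them called it.

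Of the 46 other keratin genes, 19 had no count in any library, 12 never had more than 3, and 15 exceeded 3 counts somewhere. The foremost was KRT9 (ENSG00000171403), a type I keratin of palm and sole skin that lies next to KRT14 in the same cluster. KRT9 was at 82.6 CPM in untreated cells, 84.5, 59.8 and 94 CPM with DMSO, 103, 159 and 244 CPM with olaparib, and 108, 168 and 339 CPM with talazoparib. In the knockdown it stood at 122 and 164 CPM with NTC, 358 and 685 CPM with shEVI1-2531, and 746 and 803 CPM with shEVI1-2532. All inhibitor libraries lay above all DMSO libraries, and both shRNAs above NTC. The mean PARPi effect was 1.10 ± 0.24 (edgeR, adjusted p = 0.0471), a call that was lost without the 24 h libraries (adjusted p = 0.34) and without the time point in the model (0.223). With shEVI1-2532 KRT9 rose by 2.47 ± 0.18 (adjusted p = 1.21e-06) and with shEVI1-2531 by 1.83 ± 0.18 (adjusted p = 5.62e-05). Per kb of exon KRT9 was above KRT17 in 4 of 16 libraries and above KRT16 in 10. KRT9, KRT16 and KRT17 together gave 88.9% of the summed type I keratin level in untreated cells. At 48 h they gave 93.2% with DMSO, 98.4% with olaparib and 98.6% with talazoparib. In the knockdown their part was 96.4% and 96.6% with NTC, 97.8% and 98.8% with shEVI1-2531, and 98.8% on both days with shEVI1-2532.

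KRT9 was the 1 of 8 other keratins tested that edgeR called for PARPi, beside 4.17% of all genes. KRT15 had a larger mean effect, 2.14 ± 0.52 (adjusted p = 0.0522), with 0.305 CPM in DMSO, 3.23 CPM in olaparib and 3.83 CPM in talazoparib at 48 h. KRT23 had 1.19 ± 0.34 (adjusted p = 0.0634), with 0.259, 1.03 and 1.3 CPM in the same libraries. Both were called with DESeq2 (0.000584 for KRT15, 0.03 for KRT23), without a filter on low counts (0.000533 and 0.0125) and without the 12 h libraries (0.00152 and 0.0439). In the knockdown 10 were tested. With shEVI1-2532, KRT9, KRT15, KRT23, KRT13 and KRT36, all type I, were called higher, beside 21.2% of all genes. KRT7, KRT81 and KRT86, all type II, were called lower, beside 19.9% of all genes. KRT13 passed the filter on low counts only through the shEVI1-2532 libraries (30 and 16 counts, 3 to 9 elsewhere in the knockdown). KRT36 was low too, at a mean log2 CPM of -3.13, and nothing is read from the calls of KRT13 and KRT36. With shEVI1-2531, KRT9, KRT15 and KRT23 were called higher, beside 9.49% of genes, and the same 3 type II genes lower, beside 7.90%. KRT15, a keratin of basal and hair follicle stem cells, rose from 0.174 and 0.108 CPM with NTC to 0.787 and 0.854 CPM with shEVI1-2531, and to 4.93 and 2.91 CPM with shEVI1-2532. KRT23 rose from 0.317 and 0.208 CPM to 0.865 and 0.613 CPM, and to 4.14 and 4.45 CPM. KRT7, a keratin of glandular and bladder epithelium, fell from 6.35 and 11.6 CPM to 1 and 0.92 CPM with shEVI1-2531 and 2.13 and 1.32 CPM with shEVI1-2532. The hair keratins KRT81 and KRT86, close paralogs that can share reads, fell in step, KRT81 from 6.07 and 11.3 CPM to 1.01 and 0.729 CPM and to 0.717 and 0.778 CPM. The annotated span of KRT86, introns included, covers KRT81 on the opposite strand and overlaps the end of KRT7 on its own strand. With the strand setting unknown, the falls of KRT7, KRT81 and KRT86 may not be separate observations. In DMSO, KRT7 was at 1.28 to 2.42 CPM and KRT81 at 0.999 to 2.78 CPM, under the NTC levels, and none of these 3 was called for PARPi by edgeR. At 48 h, though, KRT81 was at 2.18 CPM with DMSO, 0.627 CPM with olaparib and 0.42 CPM with talazoparib, and KRT86 at 1.84, 0.369 and 0.315 CPM. Their mean PARPi effects were -0.94 ± 0.38 (adjusted p = 0.121) and -0.97 ± 0.46 (adjusted p = 0.165), that of KRT7 0.15 ± 0.19 (adjusted p = 0.589). KRT81 was called lower without a filter on low counts (0.0269) and KRT86 without the 12 h libraries (0.0218). KRT23 with shEVI1-2531 lost its call without NTC day 6 (adjusted p = 0.0531). Between the shRNAs, KRT9, KRT15 and KRT23 were called higher with shEVI1-2532, KRT9 by 0.64 ± 0.17 (adjusted p = 0.0183), which was lost without shEVI1-2531 day 3 (0.317), without shEVI1-2532 day 3 (0.145), without the day in the model (0.376) and with scaling to the library total (0.0724).

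Summed over genes, the 28 type I keratins stood at 83 CPM per kb in untreated cells, 98.7 to 129 with DMSO, and 672 with olaparib and 783 with talazoparib at 48 h. At day 3 they stood at 254 with NTC and 1408 with shEVI1-2532. The 26 type II keratins summed to 2.03 to 4.26 CPM per kb in all PARPi libraries. They stood at 7.22 and 12.9 with NTC and at 2.21 to 3.76 with either shRNA. Type I transcripts thus exceeded type II transcripts 34.9-fold in untreated cells. At 48 h they did so 36.1-fold with DMSO, 175-fold with olaparib and 233-fold with talazoparib. At day 3 the ratio was 35.2-fold with NTC, 237-fold with shEVI1-2531 and 390-fold with shEVI1-2532, and at day 6 it was 16.5-fold, 315-fold and 313-fold. Keratin filaments need both types in equal amounts, and protein was not measured in these data.

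**Figure D4:**
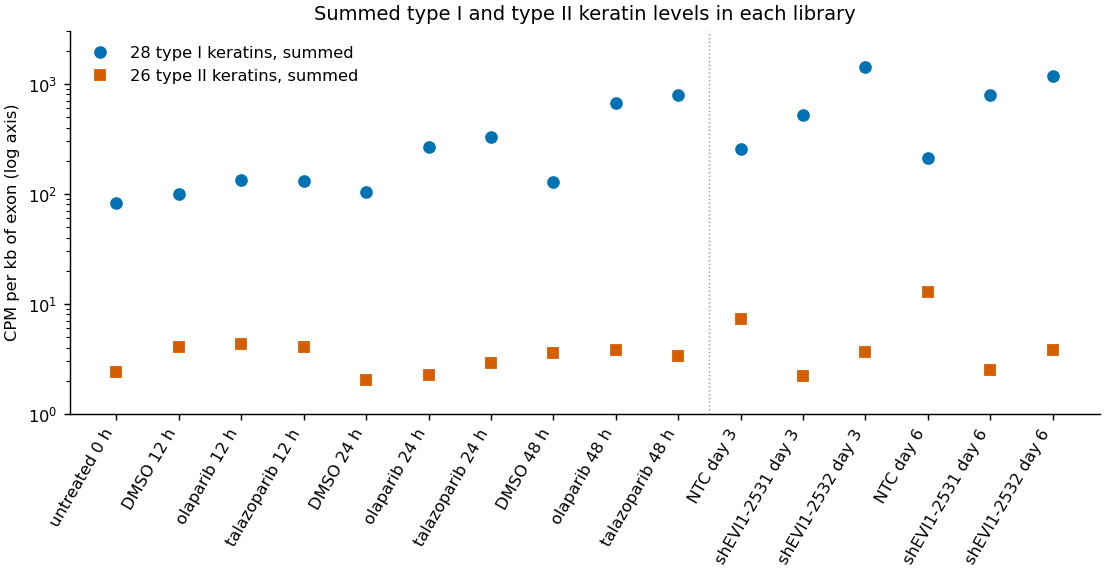
Summed levels of the 28 type I (circles) and 26 type II (squares) keratin genes in CPM per kb of exon (log axis), 1 point of each kind per library; the dotted line separates PARPi from knockdown libraries. Type I keratins span 83 to 1408 CPM per kb, whereas type II keratins stay between 2.03 and 12.9 and are highest with NTC.

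In the files 14 genes carry names that begin with KRT16P or KRT17P, 13 of them on chromosome 17 and KRT17P8 on chromosome 12. All 6 KRT16P genes together took 0.0663% to 0.415% of the counts of KRT16 plus its pseudogenes, and all 8 KRT17P genes 0.165% to 0.674% of those of KRT17 plus its own. In numbers, KRT16 with 153536 counts in shEVI1-2532 at day 3 had 547 counts on its pseudogenes, and in untreated cells 1720 counts stood beside 5. KRT16 pseudogene counts were thus highest in the library with the most KRT16 counts. This did not hold for KRT17, which had most counts with shEVI1-2531 at day 6 (107885, beside 594 on its pseudogenes). Its pseudogene counts were highest with shEVI1-2532 at day 3 (672, beside 98995 of KRT17). The share was not the same in all libraries: for KRT16 it was 0.229% (exact 95% interval 0.178% to 0.29%) with NTC at day 3 and 0.355% (0.326% to 0.386%) with shEVI1-2532 at day 3. For KRT17 it was 0.426% (0.364% to 0.497%) and 0.674% (0.624% to 0.727%) in the same libraries. Whether these counts are transcripts of the pseudogenes or reads of the parent was not tested, and the treatment of reads with several matches is not given in the sources used here.

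KRT16P1, KRT16P2, KRT16P3, KRT17P1, KRT17P2, KRT17P3 and KRT17P6 passed the filter in the knockdown, and all 7 were called higher with both shRNAs (edgeR). Over all genes, 21.2% were called higher with shEVI1-2532 and 9.49% with shEVI1-2531. KRT16P1, for example, was 3.65 ± 0.34 higher with shEVI1-2532 (adjusted p = 7.08e-06) against 2.97 ± 0.21 for its parent, and KRT17P2 2.49 ± 0.29 (adjusted p = 3.22e-05) against 1.96 ± 0.19. In the PARPi fit 5 were tested and KRT16P3 was called (3.46 ± 0.51, adjusted p = 0.0205), on 1, 1 and 2 counts with DMSO against 4 to 36 with the inhibitors. KRT16P3 reached the 10 counts of the filter in inhibitor libraries alone, as did KRT16P1, KRT17P3 and KRT17P6. These genes entered the test only through the treated libraries, so nothing is read from their direction or from this call. No pseudogene was called for PARPi without the 24 h or without the 48 h libraries. With shEVI1-2531, 5 of the 7 were called without NTC day 6 or without shEVI1-2531 day 6. The remaining 7 never had more than 13 counts. KRT42P, a pseudogene next to KRT17, was at 7.55 and 4.74 CPM with NTC, 14 and 15.6 CPM with shEVI1-2531, and 9.33 and 6.52 CPM with shEVI1-2532. It was called higher with shEVI1-2531 (1.31 ± 0.22, adjusted p = 0.00162) and not with shEVI1-2532 (0.38 ± 0.22, adjusted p = 0.188), and it was lower with shEVI1-2532 than with shEVI1-2531 (-0.94 ± 0.22, adjusted p = 0.00838).

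**Figure D5:**
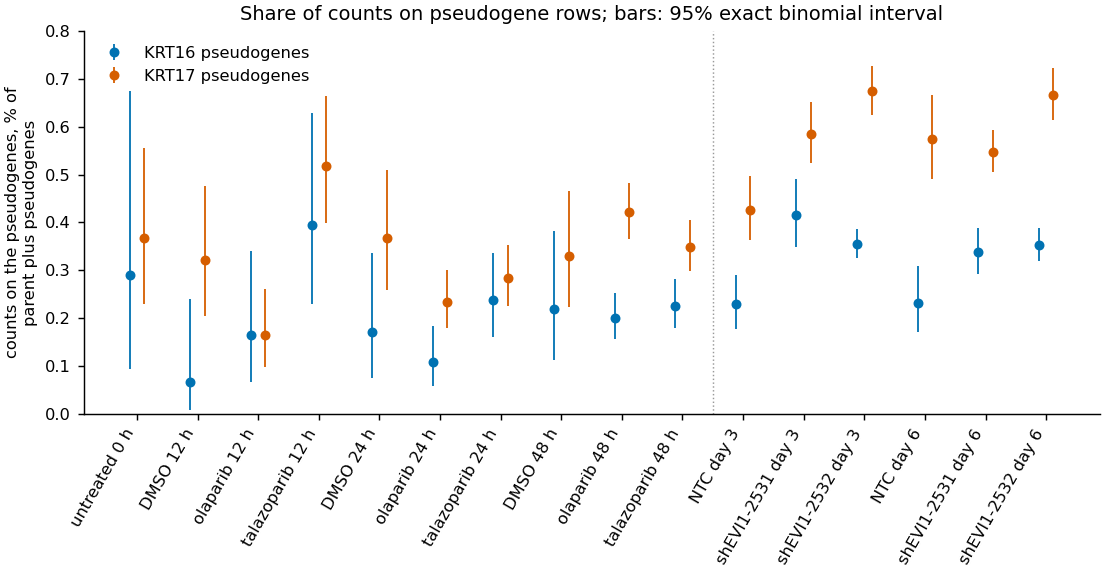
Counts on all KRT16P (blue) or KRT17P (orange) genes as a percentage of parent plus pseudogene counts in each library, with exact 95% binomial intervals, which cover counting error only. All shares lie under 0.7%, between 0.0663% and 0.674%, while the parents' counts span 1720 to 153536 for KRT16.

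No gene overlaps KRT16 or KRT17, and KRT16 is the only gene between KRT14 and KRT17. KRT9, KRT14, KRT16 and KRT17 lie in a row on the minus strand, with 10219 bases between KRT9 and KRT14 and 22882 between KRT14 and KRT16. Along this row the levels did not follow position: KRT14, between KRT9 and KRT16, stood at 0.00168 to 0.0171 of the KRT16 level per kb of exon. The long non-coding RNA LINC00974, in the same cluster, was at 1.37 and 1.57 CPM with NTC, 1.7 and 2.06 CPM with shEVI1-2531, and 14.1 and 8.92 CPM with shEVI1-2532. It rose with shEVI1-2532 (2.96 ± 0.27, adjusted p = 6.06e-06) and was not called with shEVI1-2531 (0.36 ± 0.26, adjusted p = 0.384).

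Genes that follow KRT16 and KRT17 were sought among the 11163 that are no keratins and average more than 1 on the log2 CPM scale. Over the 16 libraries the closest to KRT16 were YPEL2 (Pearson's r = 0.973), CITED2, a transcriptional co-regulator (0.967), BIRC7, an inhibitor of apoptosis (0.952), IFI27L2 (0.95) and CD1C, a lipid antigen-presenting molecule of dendritic cells (0.947). For KRT17 they were YPEL2 (0.984), CITED2 (0.981), the myeloid receptor CLEC5A (0.968), the adenosine receptor ADORA3 (0.961) and CD1C (0.95). KRT16 and KRT17 had r = 0.969 with each other. These are descriptions over libraries that share controls and 2 experiments of unequal depth, and they were picked as the highest of many. Spearman's rho for these pairs was 0.918 to 0.971.

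Because the culture medium was conditioned by an epithelial line, a list of 25 markers of epithelial cells was read beside the keratins, and it was mixed. Of these, 10 never had more than 3 counts in any of the 16 libraries, among them EPCAM, CDH1 (E-cadherin), TP63, GRHL2 and KRT5. The 25 together came to 11.1 to 37.3 CPM in PARPi and 15.3 to 24.9 CPM in knockdown libraries, most of it from ST14 (3 to 13.1 CPM), CLDN7 (2.14 to 8.16 CPM), KRT7 (0.92 to 11.6 CPM), PRSS8 (0.607 to 8.91 CPM) and the urothelial UPK3A (0.367 to 3.88 CPM). Within PARPi this sum was highest with talazoparib (37.3 CPM) and olaparib (27.7 CPM) at 48 h, against 13.6 CPM with DMSO. KRT16 and KRT17 were highest within PARPi in the same inhibitor libraries. In the knockdown the sum was 15.3 and 22.9 CPM with NTC, 17.4 and 18.8 CPM with shEVI1-2531, and 22.5 and 24.9 CPM with shEVI1-2532, at day 3 and day 6. NTC at day 6 thus lay above both shEVI1-2531 libraries, unlike for KRT16 and KRT17. At day 6, however, KRT7 alone gave 11.6 of the 22.9 CPM with NTC and 0.92 of the 18.8 CPM with shEVI1-2531. This order of the sums thus rests on KRT7, itself a keratin. The part of this sum in the keratin result was not tested. In the knockdown LAMB3, ST14 and UPK3A were called higher and KRT7 and SFN lower with shEVI1-2532, and LAMB3 and ST14 higher and KRT7 lower with shEVI1-2531, of 10 tested. Over all genes, 21.2% were called higher and 19.9% lower with shEVI1-2532, and 9.49% and 7.90% with shEVI1-2531. Nothing about the list is read from these counts. For PARPi edgeR called 0 of 9, with 5 at an unadjusted p under 0.05. The 12 markers of leukemic myeloid cells summed to 3452 to 11231 CPM. MPO, with a mean of 2154 CPM, and LYZ, with 1378 CPM, led them, PTPRC (CD45) was at 303 to 565 CPM, and FLT3 alone was low, at 0.238 CPM or less. Of these 12, 6 were called higher with shEVI1-2532 (CD33, CSF2RA, CSF2RB, ITGAM, LYZ and SPI1) and 3 lower (CD34, FLT3 and KIT), beside 21.2% and 19.9% of all genes. With shEVI1-2531, CD33, CSF2RB, ITGAM, KIT, LYZ and SPI1 were called higher and CD34 lower, beside 9.49% and 7.90% of all genes. The changes were large for the stem and progenitor marker CD34 (-6.78 ± 0.34 with shEVI1-2532, -2.43 ± 0.28 with shEVI1-2531), for LYZ, lysozyme (4.85 ± 0.19 and 2.59 ± 0.17), and for the myeloid integrin ITGAM (3.27 ± 0.14 and 1.62 ± 0.13), and their part in the keratin result was not tested. For PARPi edgeR called 0 of 11 (8 at an unadjusted p under 0.05).

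Genes that anchor keratin filaments were partly present. Of 20 linkers and desmosome genes, 6 never had more than 3 counts, while PLEC (plectin, a mean of 264 CPM), JUP (plakoglobin, 106 CPM), DSG2 (78.3 CPM) and DSC2 (71.9 CPM) were the highest. With shEVI1-2532, DSC2, DSP and PLEC were called higher and DSG2, EVPL, JUP and PKP4 lower of 9 tested, beside 21.2% and 19.9% of all genes. With shEVI1-2531, DSC2 was called higher and DSG2, EVPL and JUP lower, beside 9.49% and 7.90% of all genes. For PARPi DSC2 and PPL were called higher, beside 3.16% of all genes. The other intermediate filament genes, 15 in all with 9 tested, were led by LMNA (343 CPM), LMNB1 (279 CPM) and VIM (229 CPM). For PARPi edgeR called 0 of them (6 at an unadjusted p under 0.05). With shEVI1-2532 DES and VIM were called higher and BFSP1, LMNB1, LMNB2 and NES lower, and with shEVI1-2531 VIM was called lower, beside the same shares of all genes. VIM thus had opposite calls with the shRNAs, whereas KRT16 and KRT17 were higher with both.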

How the data were processed

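RNA-Seq of MUTZ-3 cells gave 16 libraries, 10 of the PARPi and 6 of the knockdown experiment. Per the labels, libraries were made with a stranded mRNA kit, reads were 100 bases and paired, and STAR, Picard, featureCounts and GRCh38 were used, without versions. Strand setting and treatment of multi-mapping reads are not given in the sources used here. The authors deposited counts, not normalized, of 60623 genes per library, beside TPM. Dividing by gene span, introns included, gave their TPM again (largest difference 5.5e-11). Deposited TPM were not used otherwise. Library totals were 55999673 to 72681943 counts (PARPi) and 95523038 to 120716213 counts (knockdown), so 3 counts equal 0.0249 to 0.0536 CPM. Intervals and this limit cover counting error only.

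A gene was tested if it reached 10 counts in 3 or more of the 9 time course libraries, or in 2 or more of the 6 knockdown libraries. Tests were run with edgeR 4.0.16 (quasi-likelihood, TMM, R 4.3.3), with Benjamini-Hochberg adjustment over all genes and a threshold of 0.05. Models held time point or day as a factor and each inhibitor or shRNA, with 4 and 2 residual degrees of freedom. The untreated library entered no test. CPM used TMM factors set within each experiment, so levels are not strictly comparable between experiments. An SE is the log2 fold change divided by the square root of F. Log2 CPM for correlations used a prior count of 2. Exon lengths and sequences come from GENCODE 29, in which 58516 of the gene IDs were found, 46586 with the same coordinates. Ratios have exact conditional binomial (Clopper-Pearson, 95%) intervals (scipy 1.17.1), and plots used matplotlib 3.10.9 in Python 3.11.15.

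The members, lists and tests were chosen with earlier results of these data known. Named besides the 8 members are all KRT16P and KRT17P genes, other keratins called in a comparison with a mean log2 CPM above 0, neighbours of KRT16 and KRT17, the 5 genes most correlated with each, MECOM, and the called and highest genes of the other lists. KRT13, KRT36, KRT42P, LINC00974, UPK3A, EPCAM, CDH1, TP63 and GRHL2 were named after their values were seen. Alternatives were upper quartile factors, library total only, DESeq2 1.42.0 (Wald test), no filter, leaving out 1 time point or 1 knockdown library, no time point or day, both shRNAs as 1 group, and parents summed with pseudogenes. Both fits were first tested on simulated data, in which 200 genes were changed.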

Additional observations from a re-analysis of the deposited data

Results flagged for a closer look

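For 3 keratins the effect of shEVI1-2532 and that of shEVI1-2531 differed by a fit of the difference itself. The members were chosen with their responses to each shRNA known, so the p-values describe these libraries and are not independent evidence. With edgeR's quasi-likelihood test, shEVI1-2532 minus shEVI1-2531 was 1.79 for KRT16 (log2 fold change, adjusted p = 0.00011), 1.10 for KRT8 (adjusted p = 0.00157) and 0.89 for KRT18 (adjusted p = 0.00533). Each was higher with shEVI1-2532 in 2 of 2 days. As each shRNA has 1 library per day, the test treats the days as repeats, and the arms also differ in the level of MECOM, so strength of knockdown and other properties of an shRNA cannot be told apart. With 1 library per condition, no group was large enough to look for a library far from the others.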

How the results depend on the processing

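Calls for PARPi depended most on the processing. The mean PARPi effect called 1 member, 1 other keratin and 718 genes, but 2, 5 and 3438 with DESeq2, 2, 8 and 3728 without a filter, 0, 0 and 16 without the time point, and 468 genes with the library total only. Without 1 time point the ranges were 0 to 3 members, 0 to 5 other keratins and 0 to 3769 genes, lowest without 24 h and highest without 12 h. For talazoparib minus olaparib, genes called were 1 with DESeq2, 5 without a filter, and 0 to 2 without 1 time point. In the knockdown, both shRNAs as 1 group called 1 member, 4 other keratins and 308 genes, against 5, 8 and 7648 with shEVI1-2532 and 2, 6 and 3234 with shEVI1-2531. Without the day, shEVI1-2532 called 3536 genes, shEVI1-2531 1 member and 565 genes, and their difference 1 member and 921 genes, against 3 members and 4505 genes. Without a filter the difference called 5 members and 5 other keratins. Leaving out 1 library, shEVI1-2532 called 4 to 5 members, 6 to 9 other keratins and 5321 to 8484 genes, shEVI1-2531 2 to 4, 5 to 6 and 1829 to 3883 (1829 without NTC day 3, 4 members without NTC day 6), and their difference 2 to 5, 2 to 6 and 2861 to 4971, lowest in each without shEVI1-2532 day 3. An arm left with 1 library is assumed to vary as the others do. Reversed, all small and not called, were talazoparib minus olaparib without 24 h for KRT10 (-0.049, up to 0.13 without 12 h), KRT7 (-0.089, up to 0.329), KRT81 (-0.285, up to 0.575) and KRT86 (-0.157, up to 0.687), and the shRNA difference for KRT81 without shEVI1-2531 day 3 (0.322, down to -0.76), KRT10 without shEVI1-2532 day 3 (0.018, down to -0.252) and KRT86 without shEVI1-2532 day 6 (0.007, down to -1.002). The cause was not tested. KRT16 and KRT17 kept a positive log2 fold change in each alternative, from 0.725 to 3.226 and from 1.112 to 2.186 over the PARPi and shRNA effects. Scaling to the library total shifted the median gene by -0.301 with shEVI1-2532, -0.161 with shEVI1-2531 and -0.112 in their difference. Libraries were matched by time, with time point or day as a block, and the fits without that block are given above. No paired analysis was possible because, beyond that match, each condition has 1 library and no replicate to pair. Depth limits KRT14, KRT19, KRT6A and the pseudogenes.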
